A study of Mus musculus with 9 samples.

Results

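The genes of the Polycomb repressive complexes and of DNA methylation were followed across 3 kinds of mouse neural cells grown in culture. The 39 genes were taken by name from a deposited count table of 47729 genes. They cover the core and the accessory subunits of Polycomb repressive complex 2 (PRC2), the catalytic, canonical and variant subunits of Polycomb repressive complex 1 (PRC1), an H3K27 demethylase, the DNA methyltransferases with their cofactor, and the TET enzymes. Each of the 39 symbols matched a row, and each passed the filter on low counts.

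Polycomb complexes hold genes in a silent state. PRC2 methylates lysine at H3K27 through Ezh2 or its paralogue Ezh1, and PRC1 ubiquitinates histone H2A through Ring1 or Rnf2. DNA methylation is set down by Dnmt3a and Dnmt3b, copied to the new strand after replication by Dnmt1 with Uhrf1, and oxidised by the TET enzymes as the first step of its removal. In neural stem cells of the mouse brain these systems are known to keep regulators of other lineages silent, and Bmi1 is known to sustain self-renewal by repressing the Cdkn2a locus.

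The series compared tumour cells derived from neural stem cells with wild type neural stem cells, in 3 independent cultures per cell type per its design text. The libraries labelled NF1 (1 to 3) are tumour cells derived from neural stem cells that carry shp53, an Nf1-/- genotype and CDK4. The libraries labelled LTR (1 to 3) are tumour cells derived from neural stem cells that carry lgT/Ras. The libraries labelled NSC (1, 3 and 5) are wild type primary neural stem cells from the subventricular zone, a niche of the adult brain. All cells had been kept in culture for up to 10 passages per the labels' protocols. The labels do not say whether the 3 cultures of a tumour type were transformed separately, so the p-values measure the spread between cultures only.

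Total counts ranged from 28600479 in LTR 2 to 57231024 in NSC 3. The file headers place all NSC libraries on 1 sequencing lane and all tumour libraries on another, so lane and tumour state cannot be told apart. Trp53 had 217, 151 and 221 CPM in the libraries labelled NF1, 223, 281 and 255 CPM in LTR and 107, 114 and 101 CPM in NSC, so the transcript was higher, not lower, in the libraries labelled with a hairpin against p53, and these are called by their label throughout. Nf1 had 59.03, 97.2 and 40.1 CPM in the libraries labelled NF1, 80.02, 40.3 and 58.04 CPM in LTR and 109.6, 82.5 and 114 CPM in NSC, and a sum over all its exons does not check a deletion of some of them. Cdk4 had 795, 393 and 1124 CPM in the libraries labelled NF1, 1015, 935 and 1020.1 CPM in LTR and 334, 456 and 325 CPM in NSC, and NF1 2 lay within the NSC range. The 15 stem cell markers were all detected in NSC and summed to 11310 to 13840 CPM in the libraries labelled NF1, 6897 to 12800 CPM in LTR and 14260 to 15080 CPM in NSC. Of these markers, 7 were lower and 0 higher for NF1 against NSC, and 9 were lower and 1 higher for LTR against NSC, with medians of -2.20 and -3.10 on the log2 scale, where 23.1% and 35.9% of all genes passed in either direction. The part of this in the differences of the 39 genes was not tested. Values are CPM, counts scaled to the size of the library after adjustment by the trimmed mean of M values (TMM), folds are on the log2 scale with their standard error (SE), and a gene was called at an adjusted p under 0.05 from edgeR's quasi-likelihood test over 15696 genes.

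The promoters of the genes that the results turn on are shown from RefSeq's entries on GRCm38.p6, which held 34 of the 39 genes, at 49 starts. Kdm6b, Rybp, Pcgf1, Yaf2 and Cbx2 had no entry in the table used. Each line gives up to 150 bases upstream of a start that overlap no annotated exon, read from 5′ to 3′ on the gene's strand, with CpG dinucleotides in capitals, since CpG is the substrate of the DNA methyltransferases and the feature that variant PRC1 reads through Kdm2b. Dnmt3a, Phf19, Tet3, Mtf2 and Pcgf6 are shown because they passed in LTR under every alternative tried. Scml2 is shown because it differed strongly and the start held for it had 7 CpG in its 250 upstream bases. The median was 21 over the 49 starts and 6 over all starts. The starts held for Scml2 and Tet3 lie well inside the annotated genes (chrX:161117193-161258213, plus strand, and chr6:83362373-83459084, minus strand). The outermost starts of these genes were not examined.
Dnmt3a, chr12:3806830-3806979, plus strand: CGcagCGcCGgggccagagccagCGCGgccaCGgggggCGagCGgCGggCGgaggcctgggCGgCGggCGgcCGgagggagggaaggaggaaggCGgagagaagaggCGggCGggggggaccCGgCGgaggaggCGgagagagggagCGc
Phf19, chr2:34914027-34914176, minus strand: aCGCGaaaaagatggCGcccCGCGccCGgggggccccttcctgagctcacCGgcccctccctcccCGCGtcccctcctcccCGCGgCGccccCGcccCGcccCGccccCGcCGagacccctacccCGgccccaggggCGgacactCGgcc
Tet3, chr6:83441679-83441754, minus strand: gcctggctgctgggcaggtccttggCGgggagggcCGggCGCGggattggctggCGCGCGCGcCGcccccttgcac
Mtf2, chr5:108065524-108065673, plus strand: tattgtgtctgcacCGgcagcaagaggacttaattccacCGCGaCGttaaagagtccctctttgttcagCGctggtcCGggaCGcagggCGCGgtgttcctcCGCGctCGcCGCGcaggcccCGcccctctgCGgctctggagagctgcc
Pcgf6, chr19:47050907-47051056, minus strand: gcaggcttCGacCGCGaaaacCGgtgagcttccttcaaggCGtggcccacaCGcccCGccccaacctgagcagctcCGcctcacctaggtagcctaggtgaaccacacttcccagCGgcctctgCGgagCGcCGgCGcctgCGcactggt
Scml2, chrX:161162600-161162749, plus strand: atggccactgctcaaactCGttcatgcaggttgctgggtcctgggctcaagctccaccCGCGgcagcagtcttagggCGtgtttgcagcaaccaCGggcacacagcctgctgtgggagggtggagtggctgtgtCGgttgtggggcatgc

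The printed windows held 21 CpG for Dnmt3a, 20 for Phf19, 16 for Mtf2, 14 for Pcgf6 and 6 for Scml2 in 150 bases each, and 9 for Tet3 in 76 bases. Mtf2 and Pcgf6, which were higher in tumour cells, and Dnmt3a, Phf19 and Tet3, which were lower, all had many CpG at the starts printed. Another annotated start of Mtf2 held 1 CpG in its 150 bases. Another start of Dnmt3a held 15 CpG in 120 bases, and a further start held 9 in 150 bases. Over the 250 upstream bases the 49 starts held a median of 21 CpG, against 6 over all 32851 starts in the table, and a median GC content of 67.2% against 52.4%. A GC box, searched as GGGCGG on both strands, was found at 71.4% of the 49 starts and at 32.7% of all starts. A TATA motif, searched as TATAAA on both strands, was found at 2.04% and 12.4%. An E2F motif, searched on both strands as TTTCCCGC, TTTGGCGC, TTTCGCGC or TTTGCCGC, was found at 8.16% of the 49 starts (Suz12, Phf19, Dnmt1 and Uhrf1) and at 1.86% of all starts. These matches describe the sequence only.

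In the libraries labelled NF1, 7 of the 39 genes were higher than in NSC and 7 were lower, or 35.9% of the genes, where 23.1% of all 15696 genes passed, 10.1% higher and 13.1% lower. In LTR, 7 were higher than in NSC and 10 were lower, or 43.6% of the genes, where 35.9% of all genes passed, 14.9% higher and 20.9% lower. The median log2 fold change of the 39 genes was -0.09 for NF1 against NSC and 0.14 for LTR against NSC, and that of all genes was 0.00 and -0.06. Libraries did not overlap between NF1 and NSC for 11 higher and 9 lower genes, where 42.3% of all genes did not overlap, 18.7% higher and 23.7% lower. Between LTR and NSC this held for 12 higher and 14 lower genes, where 59% of all genes did not overlap, 26.9% higher and 32% lower. Both comparisons use the same 3 NSC libraries. Eed, Mtf2, Pcgf1, Pcgf6 and Cbx8 were higher in both tumour types, and Jarid2, Phf19, Phc1, Scml2, Dnmt3a, Tet1 and Tet3 were lower in both. Ezh2 and Bmi1 passed as higher only in the test of NF1, Rbbp7 and Cbx2 as higher only in that of LTR, and Cbx6, Rybp and Tet2 as lower only in that of LTR. None of these 7 differed between the tumour types at an adjusted p under 0.05. The other 20 genes passed in neither, and no gene passed in opposite directions. Bulk counts cannot tell fewer cells of a kind from less RNA per cell.

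**Figure D1:**
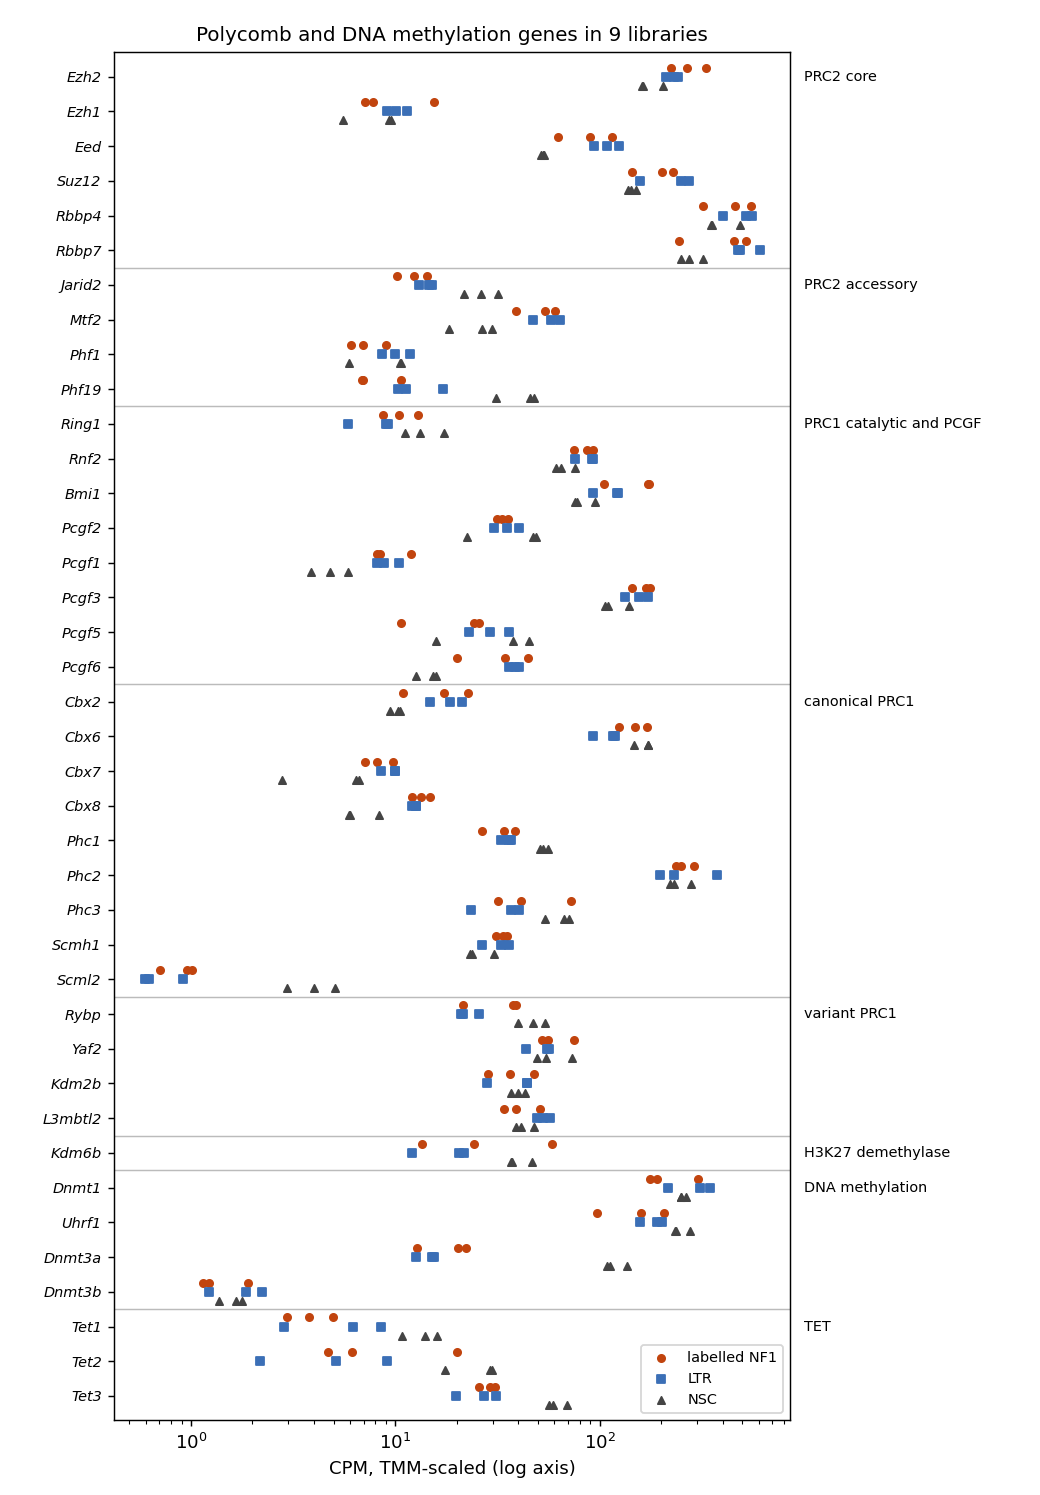
TMM-scaled CPM (log axis) of the 39 genes in the 9 libraries, grouped by role. Each point is a library; the libraries labelled NF1 are circles, LTR squares and NSC triangles. The tumour points of Dnmt3a, Phf19, Tet3 and Scml2 lie left of all NSC points, and the Dnmt1 points of the 3 groups interleave.

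How many genes passed, of the 39 and of all genes, depended on single libraries. Without both NF1 2, which stands apart from the other tumour libraries, and NSC 3, which stands apart from the other stem cell libraries, 11 genes were higher and 9 lower for NF1 against NSC, and 13 were higher and 12 lower for LTR against NSC. Over all genes, 46.4% and 49.7% passed at this setting, against 23.1% and 35.9% in the main result. Without NF1 2 alone the counts for NF1 against NSC were 9 and 10, where 42.2% of all genes passed. Without NF1 1, 0 were higher and 6 lower with edgeR, where 15 of the 39 had an unadjusted p under 0.05, and 1 was higher without NF1 3, NSC 1 or NSC 5. Without NSC 1, 4 were lower. Of all genes 11.6% passed without NF1 1, 14.4% without NF1 3, 10.9% without NSC 1 and 11.6% without NSC 5. Leaving out LTR 1 or LTR 3, which enter this comparison through the shared estimate of the spread, left 4 higher. Of all genes 19.9% and 18.7% then passed. For LTR against NSC, the higher genes numbered 3 without LTR 1 or NSC 5 and 4 without LTR 3 or NSC 1, and the lower genes numbered 4 without LTR 2 or NSC 5 and 5 without LTR 3 or NSC 1. For LTR against NSC 26.5% of all genes passed without LTR 1, 25.6% without LTR 2 and 22.2% without LTR 3. Without NSC 1 or NSC 5 the shares were 20.4% and 21.5%. Under all 19 alternatives for a comparison, Phf19 and Dnmt3a kept their call in NF1, and Mtf2, Phf19, Pcgf6, Dnmt3a and Tet3 kept it in LTR.

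**Figure D2:**
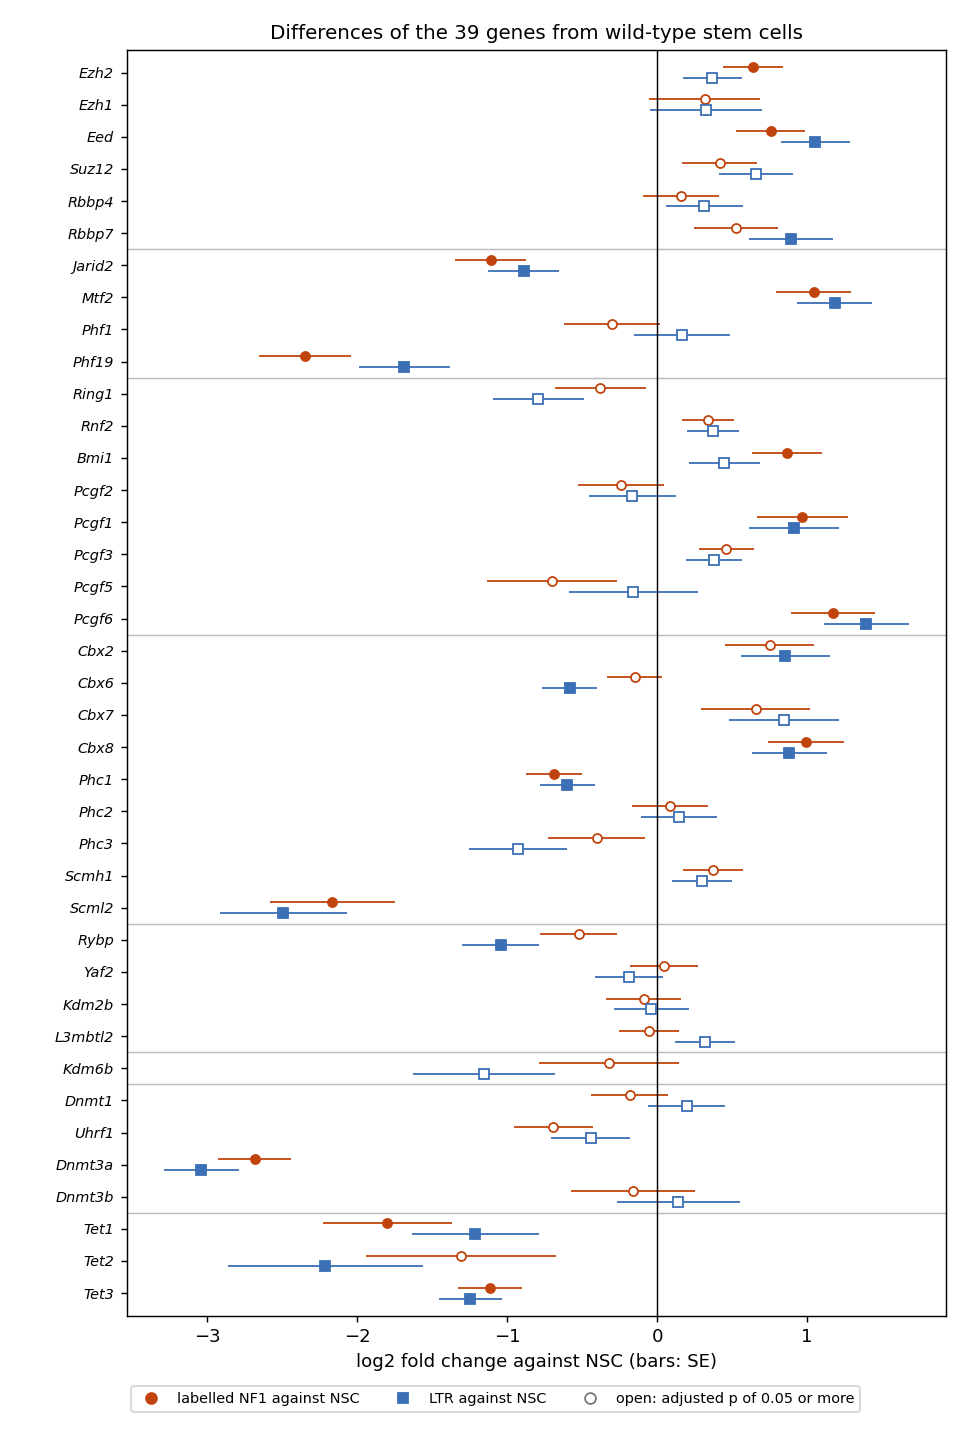
Log2 fold change against NSC with its SE for the 39 genes, for the libraries labelled NF1 (circles) and LTR (squares), n = 3 per group. Filled symbols have an adjusted p under 0.05; Dnmt3a lies farthest to the left in both and Pcgf6 farthest to the right.

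All 6 core PRC2 genes had a positive log2 fold change in both comparisons, which share the NSC libraries. For NF1 against NSC, Ezh1 turned to -0.11 without NF1 2 and Rbbp4 to -0.05 without NF1 3. The share of all genes with a positive value was not counted, and their median was 0.00 for NF1 and -0.06 for LTR. Of the 6, 2 passed in each: Ezh2 and Eed for NF1 against NSC, and Eed and Rbbp7 for LTR against NSC. Over all genes 23.1% and 35.9% passed. Ezh2, the main H3K27 methyltransferase of dividing cells, had 332, 225 and 268 CPM in the libraries labelled NF1, 230.3, 211 and 242 CPM in LTR and 162, 205 and 163 CPM in NSC. Its libraries did not overlap with NSC in either tumour type. The log2 fold change was 0.64 ± 0.20 (SE, adjusted p = 0.0448) for NF1 against NSC and 0.37 ± 0.20 (SE, adjusted p = 0.169) for LTR against NSC. The NF1 call was lost without NF1 1, NF1 3, LTR 1, LTR 3, NSC 1 or NSC 5 (adjusted p of 0.0589 to 0.162). Ezh1, the paralogue found in resting cells, had 7.82, 15.5 and 7.099 CPM in the libraries labelled NF1, 11.4, 10.1 and 9.08 CPM in LTR and 9.37, 5.58 and 9.49 CPM in NSC, with overlap between all groups. It differed by 0.32 ± 0.37 log2 units (SE, adjusted p = 0.5597) for NF1 and 0.32 ± 0.37 log2 units (SE, adjusted p = 0.514) for LTR.

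Eed, the subunit that binds methylated H3K27, had 89.6, 62.3 and 115 CPM in the libraries labelled NF1, 93.8, 125 and 109 CPM in LTR and 51.5, 53.1 and 53.3 CPM in NSC. Every tumour library lay above the NSC libraries, which differed little among themselves. The log2 fold change was 0.76 ± 0.23 (SE, adjusted p = 0.0421) for NF1 against NSC and 1.05 ± 0.23 (SE, adjusted p = 0.00882) for LTR against NSC. The call for NF1 was lost without NF1 1, NF1 3, LTR 1, LTR 3, NSC 1, NSC 3 or NSC 5 (adjusted p of 0.0531 to 0.163). Suz12, the scaffold of the complex, had 229.9, 145 and 202 CPM in the libraries labelled NF1, 274, 158 and 249.9 CPM in LTR and 138, 152 and 143 CPM in NSC. It was above NSC in all LTR libraries and overlapped with NSC in the libraries labelled NF1, with a log2 fold change of 0.42 ± 0.25 (SE, adjusted p = 0.245) for NF1 and 0.66 ± 0.25 (SE, adjusted p = 0.0646) for LTR. Suz12 passed in LTR without NF1 2 or LTR 2 (adjusted p of 0.0243 to 0.0301).

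Rbbp7 and Rbbp4 are histone-binding proteins shared with other chromatin complexes. Rbbp7 had 455, 246 and 519 CPM in the libraries labelled NF1, 478, 608 and 486 CPM in LTR and 249, 323 and 275 CPM in NSC, with NF1 2 below all NSC libraries and all LTR libraries above NSC. It rose by 0.89 ± 0.28 log2 units (SE, adjusted p = 0.0338) for LTR against NSC and was at 0.53 ± 0.28 log2 units (SE, adjusted p = 0.193) for NF1 against NSC. The LTR call was lost without LTR 1, LTR 2, LTR 3, NSC 1 or NSC 5 (adjusted p of 0.0581 to 0.118), and NF1 passed without NF1 2 (adjusted p = 0.01199). Rbbp4 did not pass in either comparison (0.16 and 0.31 on the log2 scale for NF1 and LTR). It shares 8.94% of its exon bases with Sync on the other strand and 9.1% with a further transcript, and Rbbp7 shares 5.98% with Txlng. The library kit does not keep strand and the strand setting of the counts is not given, so reads in such stretches are uncertain.

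The accessory PRC2 genes moved in opposite directions. These proteins decide where PRC2 binds: Mtf2, Phf19 and Phf1 are the Polycomb-like proteins, which bind CpG-rich DNA and methylated H3K36, and Jarid2 joins PRC2 in a separate form of the complex. Mtf2 (chr5:108065674-108109004 on GRCm38, plus strand) had 53.9, 39.1 and 60.4 CPM in the libraries labelled NF1, 57.6, 47.2 and 64.4 CPM in LTR and 26.5, 18.4 and 29.6 CPM in NSC. All tumour libraries lay above all NSC libraries. Mtf2 rose by 1.04 ± 0.25 log2 units (SE, adjusted p = 0.0177) for NF1 against NSC and by 1.18 ± 0.25 log2 units (SE, adjusted p = 0.00766) for LTR against NSC. The NF1 call was lost without NF1 1, NF1 3 or NSC 1 (adjusted p of 0.0575 to 0.05905). Mtf2 shares 6.93% of its exon bases with the strongly expressed Tmed5 on the opposite strand.

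Phf19 (chr2:34893757-34914026, minus strand), the second Polycomb-like protein, had 10.6, 6.88 and 6.96 CPM in the libraries labelled NF1, 17.1, 10.4 and 11.3 CPM in LTR and 45.9, 31.1 and 47.9 CPM in NSC. The highest tumour library, LTR 1, lay below the lowest NSC library. The level was 5.0999-fold lower for NF1 against NSC, a log2 fold change of -2.35 ± 0.31 (SE, adjusted p = 0.00191), and 3.22-fold lower for LTR against NSC, a log2 fold change of -1.69 ± 0.30 (SE, adjusted p = 0.00402). Both calls held under all 19 alternatives. Jarid2 had 12.4, 14.3 and 10.2 CPM in the libraries labelled NF1, 15.2, 13.1 and 14.7 CPM in LTR and 31.8, 21.6 and 26.2 CPM in NSC, with no overlap between tumour and NSC libraries. It fell in both, with -1.11 ± 0.24 log2 units (SE, adjusted p = 0.0114) for NF1 and -0.89 ± 0.24 log2 units (SE, adjusted p = 0.0182) for LTR. The NF1 call was lost without NSC 1 (adjusted p = 0.0585) and the LTR call without LTR 2, LTR 3, NSC 1 or NSC 5 (adjusted p of 0.0554 to 0.0857). Phf1 overlapped between all groups and did not pass, at -0.30 and 0.16 on the log2 scale for NF1 and LTR, and 39.3% of its exon bases lie within Cuta on the opposite strand.

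Neither catalytic subunit of PRC1 passed, and of the 6 PCGF genes, which define the forms of PRC1, 3 rose for NF1 against NSC and 2 for LTR against NSC, where 10.1% and 14.9% of all genes were higher. Over both directions 23.1% and 35.9% of all genes passed. Rnf2, the main E3 ligase, had 86.7, 74.8 and 92.9 CPM in the libraries labelled NF1, 91.97, 75.8 and 92.7 CPM in LTR and 64.7, 75.7 and 61.2 CPM in NSC. The LTR libraries lay just above the NSC range and NF1 2 within it, with log2 fold changes of 0.34 ± 0.17 (SE, adjusted p = 0.185) and 0.37 ± 0.17 (SE, adjusted p = 0.122) for NF1 and LTR. Ring1, its paralogue, had 8.69, 12.9 and 10.5 CPM in the libraries labelled NF1, 9.04, 9.19 and 5.85 CPM in LTR and 13.3, 11.2 and 17.3 CPM in NSC. It lay below NSC in all LTR libraries but did not pass, at -0.38 ± 0.30 (SE, adjusted p = 0.3803) for NF1 and -0.79 ± 0.30 (SE, adjusted p = 0.0672) for LTR, and LTR passed without NF1 2 (adjusted p = 0.0405).

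Pcgf6, the subunit of the variant PRC1 that also holds L3mbtl2, had 34.3, 19.98 and 44.6 CPM in the libraries labelled NF1, 38.6, 36.1 and 40.4 CPM in LTR and 15.4, 12.6 and 15.8 CPM in NSC. No tumour library overlapped with NSC, and NF1 2 was the lowest of them. Pcgf6 rose by 1.17 ± 0.28 log2 units (SE, adjusted p = 0.0179) for NF1 against NSC and by 1.39 ± 0.28 log2 units (SE, adjusted p = 0.006603) for LTR against NSC, a 2.63-fold difference. The NF1 call was lost without NF1 1, NF1 3, NSC 1 or NSC 5 (adjusted p of 0.0544 to 0.0635). Pcgf1, the partner of Kdm2b, was lowly expressed, with 8.17, 8.42 and 11.9 CPM in the libraries labelled NF1, 10.4, 8.81 and 8.15 CPM in LTR and 4.82, 3.88 and 5.87 CPM in NSC. It rose by 0.97 ± 0.30 log2 units (SE, adjusted p = 0.0459) for NF1 and by 0.91 ± 0.30 log2 units (SE, adjusted p = 0.0414) for LTR, with no overlap with NSC in either. Both calls lay near the threshold. That for NF1 was lost without NF1 1, NF1 3, LTR 1, LTR 3, NSC 1, NSC 3 or NSC 5 (adjusted p of 0.0577 to 0.144). That for LTR was lost without NF1 1, LTR 1, LTR 2, LTR 3, NSC 1, NSC 3 or NSC 5 (adjusted p of 0.0525 to 0.119). Over the alternatives the log2 fold change was 0.75 to 1.18 for NF1 and 0.81 to 1.13 for LTR.

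Bmi1, the PCGF subunit of canonical PRC1 that neural stem cells need for self-renewal, had 174, 105 and 173 CPM in the libraries labelled NF1, 122, 92.9 and 124 CPM in LTR and 75.6, 95.2 and 77.2 CPM in NSC. NF1 1 and NF1 3 were well above every other library. Bmi1 rose by 0.87 ± 0.24 log2 units (SE, adjusted p = 0.0285) for NF1 against NSC, and LTR overlapped with NSC at 0.45 ± 0.23 log2 units (SE, adjusted p = 0.159). The NF1 call was lost without NF1 1, NF1 3, NSC 1 or NSC 5 (adjusted p of 0.0999 to 0.113). The difference of NF1 from LTR did not pass, at 0.42 ± 0.23 log2 units (SE, adjusted p = 0.587). Pcgf2, Pcgf3 and Pcgf5 passed in neither comparison, with log2 fold changes for NF1 and LTR of -0.24 and -0.16 for Pcgf2, 0.46 and 0.38 for Pcgf3, and -0.70 and -0.16 for Pcgf5. Pcgf3 passed without NSC 3 (adjusted p = 0.0423) for NF1 and without NSC 3 (adjusted p = 0.0395) for LTR. NSC 3 stood apart from NSC 1 and NSC 5 for Pcgf2 and Pcgf5, at 22.5 CPM against 48.9 and 47.4 CPM and at 15.8 CPM against 37.8 and 44.998 CPM.

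Canonical PRC1 is brought to methylated H3K27 by a CBX protein and clustered by the PHC proteins. Of its 9 genes, 1 was higher and 2 were lower for NF1 against NSC, and 2 were higher and 3 lower for LTR against NSC, where 23.1% and 35.9% of all genes passed. Cbx8 had 13.4, 14.8 and 12.1 CPM in the libraries labelled NF1, 12.6, 12.6 and 12.1 CPM in LTR and 8.34, 5.92 and 5.98 CPM in NSC. All tumour libraries lay above NSC. It rose by 0.99 ± 0.25 log2 units (SE, adjusted p = 0.0218) for NF1 and by 0.88 ± 0.25 log2 units (SE, adjusted p = 0.0238) for LTR, and the calls were lost without NF1 1 or NSC 5 (adjusted p of 0.0622 to 0.0902) for NF1 and without LTR 1 or NSC 5 (adjusted p of 0.0576 to 0.0912) for LTR. Cbx2, which compacts chromatin, had 22.6, 10.9 and 17.3 CPM in the libraries labelled NF1, 14.9, 18.6 and 21.2 CPM in LTR and 10.5, 9.403 and 10.3 CPM in NSC. Tumour and NSC libraries did not overlap, and NF1 2 lay just above NSC. LTR passed, at 0.85 ± 0.30 log2 units (SE, adjusted p = 0.0485), and NF1 did not, at 0.75 ± 0.30 log2 units (SE, adjusted p = 0.0945). The LTR call was lost without NF1 3, LTR 1, LTR 2, LTR 3, NSC 1, NSC 3 or NSC 5 (adjusted p of 0.05198 to 0.116), and NF1 passed without NF1 2 (adjusted p = 0.009697).

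Cbx6, the CBX gene with the highest level per length in all groups, had 170.3, 149 and 125 CPM in the libraries labelled NF1, 116, 92.5 and 119 CPM in LTR and 172, 147 and 173 CPM in NSC. The LTR libraries lay below all others, while the libraries labelled NF1 overlapped with NSC. Cbx6 fell, at -0.58 ± 0.19 (SE, adjusted p = 0.0359) for LTR against NSC, and was at -0.15 ± 0.19 (SE, adjusted p = 0.5803) for NF1 against NSC. The LTR call was lost without LTR 1, LTR 2, LTR 3, NSC 1, NSC 3 or NSC 5 (adjusted p of 0.0722 to 0.192), and without LTR 2 the log2 fold change was -0.36. Cbx7 had 7.0997, 8.0996 and 9.76 CPM in the libraries labelled NF1, 9.99, 8.51 and 9.97 CPM in LTR and 6.64, 2.797 and 6.41 CPM in NSC, with NSC 3 far below the other NSC libraries. It lay above NSC in all tumour libraries but did not pass, at 0.66 ± 0.37 log2 units (SE, adjusted p = 0.215) for NF1 and 0.85 ± 0.37 log2 units (SE, adjusted p = 0.0967) for LTR. LTR passed with DESeq2 and with limma-voom.

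Phc1 was lower in both tumour types, without overlap with NSC: it averaged 33.2 ± 6.06 CPM in the libraries labelled NF1, 35.3 ± 2.11 CPM in LTR and 53.5 ± 2.41 CPM in NSC (SD, n = 3 each). The log2 fold changes were -0.69 ± 0.19 (SE, adjusted p = 0.0281) for NF1 and -0.60 ± 0.19 (SE, adjusted p = 0.0331) for LTR. The NF1 call was lost without NF1 1, NF1 3, LTR 3, NSC 1, NSC 3 or NSC 5 (adjusted p of 0.0617 to 0.0907) and the LTR call without NF1 1, LTR 1, LTR 2, LTR 3, NSC 1, NSC 3 or NSC 5 (adjusted p of 0.0531 to 0.176). Phc3 lay below NSC in all LTR libraries and missed the threshold narrowly, at -0.93 ± 0.33 log2 units (SE, adjusted p = 0.0501), while NF1 2 lay above every other library with 72.4 CPM. For NF1 against NSC it was at -0.40 ± 0.32 log2 units (SE, adjusted p = 0.381) and passed without NF1 2 (adjusted p = 0.0366); for LTR it passed without NF1 2 or NF1 3 (adjusted p of 0.0105 to 0.0317). Phc2 and Scmh1 passed in neither, at 0.09 and 0.14 for Phc2 and 0.37 and 0.30 for Scmh1 on the log2 scale for NF1 and LTR.

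Scml2, a Polycomb protein known mainly from the germline of the mouse, was the least expressed of the 39 genes per length in both tumour types. It had 1.01, 0.704 and 0.956 CPM in the libraries labelled NF1, 0.623, 0.916 and 0.597 CPM in LTR and 3.997, 2.96 and 5.095 CPM in NSC. The groups were far apart, at low levels throughout. The level was 4.49-fold lower for NF1 against NSC, a log2 fold change of -2.17 ± 0.42 (SE, adjusted p = 0.0073997), and 5.63-fold lower for LTR against NSC, a log2 fold change of -2.49 ± 0.42 (SE, adjusted p = 0.003295).

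Of the 4 variant PRC1 genes, 0 passed for NF1 against NSC and 1, Rybp, for LTR against NSC. Over all genes 23.1% and 35.9% passed. Rybp, which with its paralogue Yaf2 takes the place of the CBX proteins, had 38.9, 37.8 and 21.4 CPM in the libraries labelled NF1, 20.99, 21.6 and 25.8 CPM in LTR and 47.2, 39.9 and 53.9 CPM in NSC. No tumour library overlapped with NSC, and NF1 3 lay among the LTR libraries. Rybp fell, at -1.04 ± 0.26 log2 units (SE, adjusted p = 0.01398) for LTR against NSC and was at -0.52 ± 0.26 log2 units (SE, adjusted p = 0.164) for NF1 against NSC. The LTR call was lost without LTR 2 or NSC 5 (adjusted p of 0.0549 to 0.0556). Yaf2, Kdm2b, which brings variant PRC1 to unmethylated CpG islands, and L3mbtl2 had log2 fold changes between -0.19 and 0.32 and passed in neither. L3mbtl2 shares 17.2% of its exon bases with Chadl, and Kdm2b 5.77% with Rnf34, on opposite strands.

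Kdm6b, which removes methyl groups from H3K27, had 24.4, 58.7 and 13.6 CPM in the libraries labelled NF1, 21.6, 12.1 and 20.4 CPM in LTR and 37.4, 46.6 and 36.8 CPM in NSC. It lay below NSC in all LTR libraries, and NF1 2 had the highest value of the 9. The log2 fold change was -0.32 ± 0.47 (SE, adjusted p = 0.641) for NF1 and -1.16 ± 0.47 (SE, adjusted p = 0.0818) for LTR. It passed for NF1 without NF1 2 (adjusted p = 0.0285) and for LTR without NF1 2 or NF1 3 (adjusted p of 0.0104 to 0.0317).

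Dnmt3a (chr12:3806007-3914443, plus strand), the de novo DNA methyltransferase of neural stem cells, had the largest fold change of the 39 genes in both comparisons. It had 20.4, 22.3 and 12.8 CPM in the libraries labelled NF1, 15.5, 15.2 and 12.7 CPM in LTR and 112, 136 and 108 CPM in NSC. The highest tumour library, NF1 2, lay far below the lowest NSC library. Dnmt3a was 6.43-fold lower for NF1 against NSC, a log2 fold change of -2.69 ± 0.25 (SE, adjusted p = 0.000509), and 8.23-fold lower for LTR against NSC, a log2 fold change of -3.04 ± 0.25 (SE, adjusted p = 0.0003003). Both calls held under all 19 alternatives, with a highest adjusted p of 0.00624 for NF1 and 0.00332 for LTR. The other de novo enzyme, Dnmt3b, was low in every library, with 1.91, 1.15 and 1.23 CPM in the libraries labelled NF1, 2.22, 1.22 and 1.85 CPM in LTR and 1.67, 1.37 and 1.77 CPM in NSC. Its groups overlapped, at -0.16 ± 0.41 log2 units (SE, adjusted p = 0.802) for NF1 and 0.14 ± 0.41 log2 units (SE, adjusted p = 0.806) for LTR.

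The maintenance enzyme Dnmt1 had 305, 192 and 177 CPM in the libraries labelled NF1, 348, 217 and 312 CPM in LTR and 251, 249 and 265 CPM in NSC. NSC libraries lay close together and the tumour libraries spread on both sides of them. The log2 fold change was -0.18 ± 0.26 (SE, adjusted p = 0.625) for NF1 and 0.20 ± 0.26 (SE, adjusted p = 0.568) for LTR. Uhrf1, which binds hemimethylated DNA and recruits Dnmt1, had 206, 97.6 and 159.9 CPM in the libraries labelled NF1, 192, 157 and 202 CPM in LTR and 234, 279 and 237 CPM in NSC. All tumour libraries lay below NSC, NF1 2 lowest. It passed in neither comparison nor under any alternative, at -0.69 ± 0.26 log2 units (SE, adjusted p = 0.0846) for NF1 and -0.44 ± 0.26 log2 units (SE, adjusted p = 0.208) for LTR. Both genes are used in S phase, and the summed level of 30 G1/S genes was 1984 CPM in NF1 2, 4988 and 5101 CPM in NF1 3 and NF1 1, 4982 to 5143 CPM in LTR and 2893 to 3815 CPM in NSC. Their part in these levels was not tested.

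**Figure D3:**
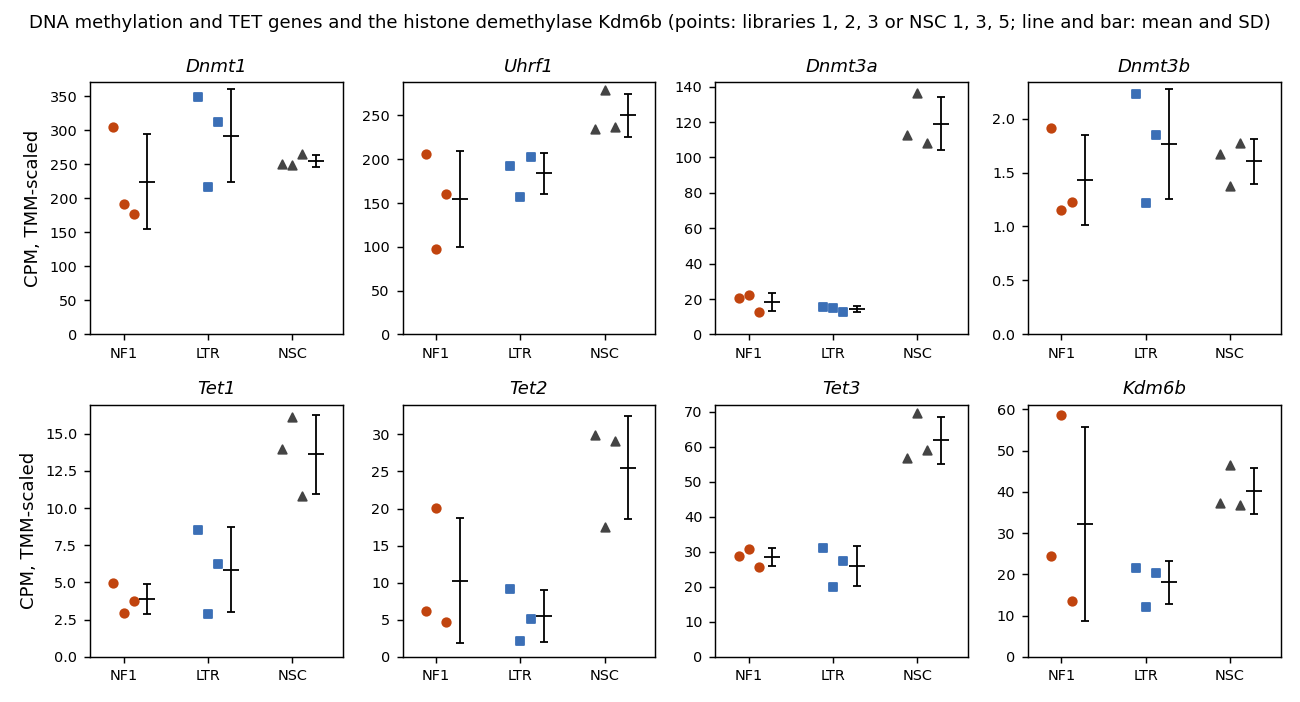
TMM-scaled CPM of the DNA methyltransferases, Uhrf1, the TET genes and Kdm6b; each point is a library, and the bar beside it gives the mean and SD (n = 3 per group). The Dnmt3a and Tet3 points of NF1 and LTR lie below all NSC points, and for Tet2 and Kdm6b the second library labelled NF1 lies far above the other ones.

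Of the 3 TET genes, whose enzymes oxidise methylcytosine, Tet1 and Tet3 were lower in the libraries labelled NF1 than in NSC, and all 3 were lower in LTR than in NSC. Over all genes, 13.1% were lower for NF1 against NSC and 20.9% for LTR against NSC. Tet3 (chr6:83362373-83459084, minus strand) had 28.9, 30.96 and 25.8 CPM in the libraries labelled NF1, 31.04, 19.8 and 27.3 CPM in LTR and 56.8, 69.6 and 59.2 CPM in NSC. No tumour library came near the NSC range. It fell, at -1.11 ± 0.21 log2 units (SE, adjusted p = 0.00706) for NF1 against NSC and -1.25 ± 0.21 log2 units (SE, adjusted p = 0.00334) for LTR against NSC. Tet1 had 4.98, 2.95 and 3.79 CPM in the libraries labelled NF1, 8.51, 2.86 and 6.24 CPM in LTR and 13.9, 16.1 and 10.8 CPM in NSC, again without overlap. It fell, at -1.80 ± 0.43 (SE, adjusted p = 0.0174) for NF1 and -1.21 ± 0.42 (SE, adjusted p = 0.0492) for LTR. The LTR value depended on LTR 2: without it the log2 fold change was -0.77. The NF1 call of Tet1 was lost without NF1 3, NSC 1 or NSC 3 (adjusted p of 0.0515 to 0.05698), and with a replicate block. The LTR call was lost without NF1 1, NF1 3, LTR 2, LTR 3, NSC 1, NSC 3 or NSC 5 (adjusted p of 0.0595 to 0.153). It was also lost with DESeq2 size factors, upper quartile scaling, library totals, no filter and the replicate block. The LTR call of Tet1 was kept under 6 of 19 alternatives.

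Tet2 had 6.17, 20.01 and 4.68 CPM in the libraries labelled NF1, 9.16, 2.17 and 5.11 CPM in LTR and 29.9, 17.5 and 29.1 CPM in NSC. NF1 2 lay between the NSC libraries, and NF1 1 and NF1 3 lay below them all. Tet2 fell, at -2.21 ± 0.65 log2 units (SE, adjusted p = 0.0268) for LTR against NSC and was at -1.31 ± 0.63 log2 units (SE, adjusted p = 0.159) for NF1 against NSC. NF1 passed without NF1 2 (adjusted p = 0.0107), and the LTR call was lost without LTR 2, LTR 3, NSC 1 or NSC 5 (adjusted p of 0.0701 to 0.0834).

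Ratios within a library do not depend on how libraries are scaled. Per kilobase of exon, the ratio of Phf19 to Mtf2, the Polycomb-like proteins that moved apart, was 0.223, 0.199 and 0.1303 in the libraries labelled NF1, 0.335, 0.249 and 0.199 in LTR and 1.96, 1.91 and 1.83 in NSC. In NSC the Phf19 level per length exceeded that of Mtf2, and in every tumour library it was lower. The ratio of Dnmt1 to Dnmt3a per kilobase was 33.8, 19.4 and 31.04 in the libraries labelled NF1, 50.7, 32.1 and 55.4 in LTR and 5.03, 4.13 and 5.52 in NSC, above NSC in every tumour library. That of Cbx6 to Cbx7 was 14.7, 11.2 and 7.82 in the libraries labelled NF1, 7.12, 6.65 and 7.33 in LTR and 15.8, 32.2 and 16.6 in NSC, below NSC in every tumour library. The ratio of Ezh2 to Ezh1 was 47.3, 16.2 and 42.05 in the libraries labelled NF1, 22.5, 23.3 and 29.7 in LTR and 19.2, 40.95 and 19.1 in NSC, and the groups overlapped. These ratios are given without a test.

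**Figure D4:**
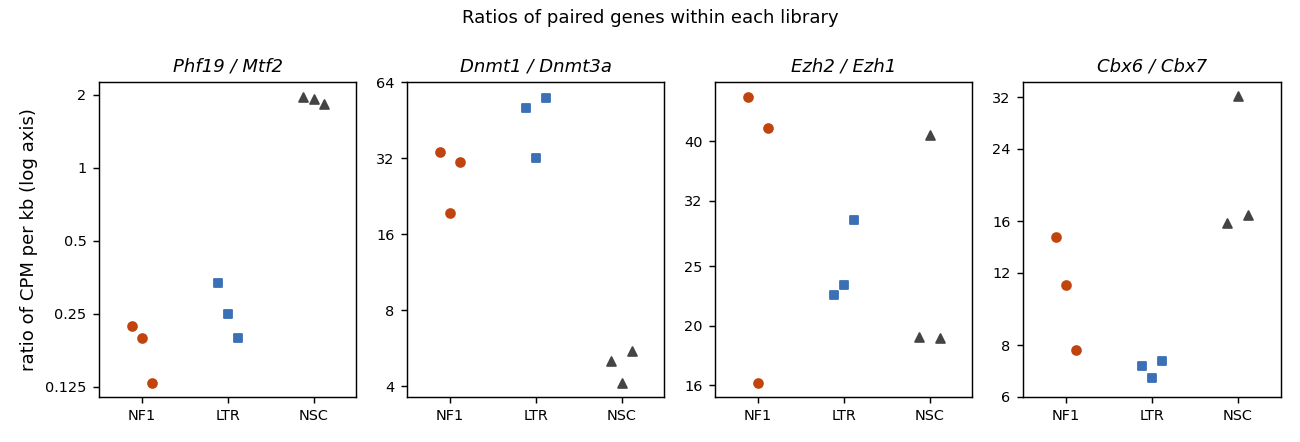
Ratio of CPM per kb of exon between paired genes in each library (log axes, each point a library, 3 per group). The Phf19 to Mtf2 ratio is below 1 in all NF1 and LTR libraries and above 1 in NSC, and the Ezh2 to Ezh1 ratio overlaps between groups.

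Set side by side per length, Rbbp7 was the most abundant of the 39 transcripts in all 3 groups, at 139.8 ± 49.1 CPM per kb in the libraries labelled NF1, 180.2 ± 25.002 in LTR and 97.1 ± 12.8 in NSC (SD, n = 3 each). Dnmt3a stood 35th of 39 in both tumour types and 19th in NSC, at 1.11 ± 0.3002, 0.8696 ± 0.0932 and 7.15 ± 0.904 CPM per kb in NF1, LTR and NSC. Phf19 stood 30th in NF1, 27th in LTR and 17th in NSC. Mtf2 stood 15th in both tumour types and 21st in NSC, and Eed stood 10th in NF1, 8th in LTR and 12th in NSC. Ezh2 was 3rd in NF1, 7th in LTR and 8th in NSC. Uhrf1 was 7th in NF1, 4th in LTR and 2nd in NSC. The lowest levels were those of Scml2, Tet1, Dnmt3b and Tet2 in both tumour types, and of Dnmt3b, Scml2, Cbx7 and Tet1 in NSC.

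Between the tumour types, 0 of the 39 genes passed, where 0% of all 15696 genes passed with edgeR's quasi-likelihood test. At an unadjusted p under 0.05 there were 1596 of all genes and 1 of the 39. DESeq2 called 328 genes and limma-voom 1, none of them among the 39. The log2 fold changes of NF1 against LTR lay between -0.66 for Phf19 and 0.91 for Tet2, with a median of -0.06, against 0.06 over all genes. Only Cbx6 had libraries that did not overlap, with 170.3, 149 and 125 CPM in the libraries labelled NF1 and 116, 92.5 and 119 CPM in LTR, at 0.43 ± 0.19 log2 units (SE, adjusted p = 0.477), the lowest adjusted p of the 39. Over all genes, 12.5% had libraries that did not overlap, with 7.21% of all genes higher in the libraries labelled NF1.

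NF1 2 stood apart from the other libraries labelled NF1 on the first principal component of all genes. It lay below both other libraries labelled NF1 for 20 of the 39 genes, above both for 10 and between them for 9. Its place was not counted over all genes, so these counts are not read as particular to the 39. On the first principal component LTR lay at 84.6 to 92.2 and NSC at -150.4 to -136.3. NF1 2 was at -21.2, against 85.1 and 109 for NF1 1 and NF1 3. Its G1/S genes were low as given above, its 10 neuronal markers summed to 54.4 CPM (20.1 and 35.5 CPM in NF1 1 and NF1 3, 26.8 to 76.0 CPM in LTR, 324 to 481 CPM in NSC), and its stem cell marker Fabp7 was at 343 CPM, against 4.96 and 1.74 CPM in the other 2. Mural cell and fibroblast markers (8 genes) summed to 7.65 to 41.7 CPM in the libraries labelled NF1, 19.5 to 156 CPM in LTR, and 1556, 209 and 1953 CPM in NSC 1, 3 and 5, with Lum at 0 in both tumour types. Microglial markers summed to at most 0.864 CPM in the libraries labelled NF1, 0.179 CPM in LTR and 7.83 CPM in NSC, and 6 of the 10, among them Cx3cr1, Trem2 and C1qa, were at 0 in all tumour libraries. Endothelial markers summed to at most 7.52 CPM in any library, with Cldn5 at 0 throughout. Of 3 endothelial markers tested, 1 was higher for NF1 against NSC and 1 for LTR against NSC. Of 5 mural cell and fibroblast markers tested, 4 were lower in each comparison, and 1 was higher for LTR against NSC. Over all genes, 10.1% and 14.9% were higher, and 13.1% and 20.9% lower, for NF1 and LTR. The part of these cells in the differences of the 39 genes was not tested.

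Further Polycomb genes, such as histone readers and enzymes that work with PRC1 or PRC2, were read in the same way. Of 23 such genes, 2 passed for NF1 against NSC, both higher (8.7%, against 23.1% of all genes), and 3 were higher and 1 lower for LTR against NSC (17.4%, against 35.9%). The median log2 fold changes were -0.02 and -0.21. Epop, which binds PRC2 and holds down its activity at genes, rose in both, by 1.88 ± 0.58 log2 units (SE, adjusted p = 0.0444) for NF1 and by 2.48 ± 0.59 log2 units (SE, adjusted p = 0.0121) for LTR, with 28.3, 17.8 and 29.3 CPM in the libraries labelled NF1, 22.3, 54.9 and 37.2 CPM in LTR and 4.58, 13.3 and 2.52 CPM in NSC. Kdm6a, the second H3K27 demethylase, rose by 0.83 ± 0.21 log2 units (SE, adjusted p = 0.0235) for NF1 and was at 0.47 ± 0.21 log2 units (SE, adjusted p = 0.114) for LTR. L3mbtl3, a reader of methylated histones, fell, at -0.95 ± 0.23 log2 units (SE, adjusted p = 0.0129) for LTR and was at -0.31 ± 0.23 log2 units (SE, adjusted p = 0.334) for NF1. Usp7, a deubiquitinase found with variant PRC1, rose by 0.50 ± 0.16 log2 units (SE, adjusted p = 0.0349) for LTR. Yy1, a DNA-binding protein, rose by 0.58 ± 0.20 log2 units (SE, adjusted p = 0.0474) for LTR. For NF1 they were at 0.28 ± 0.16 (SE, adjusted p = 0.211) and 0.56 ± 0.20 log2 units (SE, adjusted p = 0.0683).

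Of 21 other genes of DNA methylation and its removal, 19 were tested. For NF1 against NSC 2 were higher and 1 lower (15.8%, against 23.1% of all genes), and for LTR against NSC 2 passed, both higher (10.5%, against 35.9% of all genes), with medians of 0.17 and 0.42 on the log2 scale. Apex1, an endonuclease of base excision repair, rose by 1.29 ± 0.36 log2 units (SE, adjusted p = 0.0303) for NF1 and by 1.71 ± 0.36 log2 units (SE, adjusted p = 0.007697) for LTR. Zbtb38, a reader of methylated DNA, rose by 1.08 ± 0.25 log2 units (SE, adjusted p = 0.0149) for NF1. It was at 0.54 ± 0.24 log2 units (SE, adjusted p = 0.111) for LTR. D2hgdh, a mitochondrial dehydrogenase, was lower in NF1, at -1.23 ± 0.36 log2 units (SE, adjusted p = 0.0366).

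Genes that these systems are known to silence were also followed. Of 30 developmental and cell cycle regulators known as Polycomb targets, 15 had enough counts to be tested. A target nearly silent in NSC could pass this filter only through tumour libraries where it was high. The share higher and the medians that follow are therefore partly set by the filter. Setting genes without counts at a bound does not remove this. For NF1 against NSC 8 passed, all higher (53.3% of those tested, against 23.1% of all genes), and for LTR against NSC 8 were higher and 2 lower (66.7%, against 35.9%), with medians of 1.70 and 2.14 on the log2 scale, unchanged with genes at 0 in a group set at their bound of 3 counts per library. Cdkn2a, which encodes p16 and p19 and is held down by Bmi1 in neural stem cells, had 269.8, 167 and 379.8 CPM in the libraries labelled NF1, 436, 951 and 442 CPM in LTR and 59.95, 53.8 and 55.03 CPM in NSC, at 2.28 ± 0.38 log2 units (SE, adjusted p = 0.00447) for NF1 and 3.44 ± 0.40 log2 units (SE, adjusted p = 0.000984) for LTR. Its neighbour Cdkn2b had 119, 94.8 and 161 CPM in the libraries labelled NF1, 153, 229.5 and 147 CPM in LTR and 43.2, 46.1 and 45.9 CPM in NSC, at 1.47 ± 0.25 log2 units (SE, adjusted p = 0.00451) and 1.97 ± 0.25 log2 units (SE, adjusted p = 0.00129). Gata2, a blood transcription factor, was low but higher in both, with 2.29, 1.44 and 1.84 CPM in the libraries labelled NF1, 5.396, 5.68 and 5.64 CPM in LTR and 0.132, 0.1805 and 0.322 CPM in NSC. Nkx2-1, a forebrain transcription factor, had 0.898, 0.9604 and 0.751 CPM in the libraries labelled NF1, 0 in all LTR libraries and 2.89, 0.812 and 1.88 CPM in NSC. It was lower in LTR and did not pass in NF1, at -1.09 ± 0.57 log2 units (SE, adjusted p = 0.203), where the libraries overlapped with NSC. Of 24 germline genes silenced by DNA methylation, 18 had too few counts to be tested, and of the other 6, 2 were lower for NF1 against NSC and 1 for LTR against NSC, where 13.1% and 20.9% of all genes were lower. Tex15 fell, at -2.98 ± 0.80 log2 units (SE, adjusted p = 0.0276) for NF1. It missed the threshold narrowly for LTR, at -2.21 ± 0.78 log2 units (SE, adjusted p = 0.0503). Dmrtb1 was at 0 in all tumour libraries, against 5.98, 1.35 and 4.75 CPM in NSC. It passed the filter only through NSC, where it was high, so it could only come out lower. Dmrtb1 is 1 of the 2 germline genes lower for NF1 and the only 1 for LTR. These counts are therefore partly set by the filter.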

How the data were processed

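Per the labels' protocols, RNA of 9 cultures was isolated by RNeasy Plus and libraries came from a NEBNext Ultra RNA kit, which does not keep strand. The authors deposited 1 table of raw gene counts for 47729 genes, made with mm10 or GRCm38, HTSeq and STAR 2.5.2a per the submitters' processing notes, which also list DESeq2 1.8.2. No source used here gives the strand setting, how HTSeq counted, or which annotation it used. Groups and replicate numbers came from the labels.

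Counts were tested with edgeR 4.0.16 in R 4.3.3. Genes were kept by filterByExpr with a minimum count of 10, which left 15696 genes, and libraries were scaled by TMM. One quasi-likelihood model of the 3 groups over all 9 libraries gave the 3 comparisons, with Benjamini-Hochberg adjustment over all genes tested and a threshold of 0.05. The SE is the log2 fold change divided by the root of the F statistic. The fit was tested on simulated data. Levels per length are TMM-scaled CPM per kb of exon in GENCODE M21. DESeq2 1.42.0, limma-voom 3.58.1, other scalings and filters, a replicate block and leaving out libraries were tried as alternatives. Total counts of 28600479 to 57231024 per library set the counting error, and 3 counts correspond to 0.0541 to 0.114 CPM; both cover counting error only.

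Genes given in every library are the genes with a call and at least a 2-fold difference and the catalytic, scaffold and reader subunits, and of other lists up to 4 genes with the smallest adjusted p, to which Rbbp7, Bmi1, Pcgf1, Yy1 and Fabp7 were added after their values were seen. The 39 genes and all lists were chosen with earlier results of these data known. A gene counted in one of the lists is not reported here by name.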

Additional observations from a re-analysis of the deposited data

How the results depend on the processing

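The 7 higher and 7 lower genes of NF1 against NSC became 3 higher with no filter, 4 higher with at least 10 CPM in 3 libraries and 3 higher with only the 6 libraries compared. Leaving out a library, or NF1 2 and NSC 3 together, gave 0 to 11 higher and 4 to 10 lower. For LTR against NSC, 7 higher and 10 lower in the main result, there were 4 higher with no filter, and leaving out libraries gave 3 to 13 higher and 4 to 13 lower. With no filter 27482 genes were tested, against 15696, and the scaling and the estimate of the spread were made anew on them. For NF1 against NSC 13.7% of all genes passed with no filter, 20.8% with at least 10 CPM and 17.4% with 6 libraries. For LTR against NSC 20.8% passed with no filter. The cause of the lost calls was not tested. DESeq2 gave 7 higher and 7 lower for NF1 and 9 and 13 for LTR, and limma-voom 7 and 7 and 8 and 11. Of all genes 31.2% and 42.4% passed with DESeq2, and 27.5% and 38% with limma-voom, for NF1 and LTR. For LTR against NSC the genes gained were Suz12, Ring1, Cbx7, Phc3 and Kdm6b with DESeq2, and Cbx7 and Phc3 with limma-voom. Between the tumour types 0 of the 39 genes passed under every alternative, while all genes gave 0 in the main result, 328 with DESeq2, 1 with limma-voom, 52 with no filter, 34 without NF1 2 and 104 without NF1 2 and NSC 3. Over all genes, NF1 against NSC gave 3631 calls in the main result and 7485 without NF1 2 and NSC 3, with 1752 to 6900 when a single library was left out; LTR against NSC gave 5634, 8018, and 3281 to 7640.

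Replicate numbers do not pair the cultures by the labels. Deviations from the group means correlated between same-numbered libraries at -0.185 to 0.121, so the numbers were treated as names only. With the replicate block, 3 genes were higher and 2 lower for NF1 against NSC, and 2 higher and 4 lower for LTR against NSC, and over all genes 1942 and 3477 passed. The share of calls that were higher was 28.1% and 29.5% with the block, against 43.5% and 41.6%.

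No called gene changed sign. Among genes not called, signs turned at small values, none of them called. For NF1 against NSC these were Yaf2 (-0.0102 with library totals, -0.00892 at the stricter filter and -0.0746 with the block), L3mbtl2 (0.0446 with 6 libraries), Phc2 (-0.038 with the block) and Dnmt3b (0.0779 with the block). For LTR against NSC they were Pcgf2 (0.00844), Pcgf5 (0.34) and Phc2 (-0.0429), all with the block, and for NF1 against LTR Phc2 (0.00487 with the block). With libraries left out, log2 fold changes spanned 0 for NF1 against NSC in Ezh1 (-0.28 to 0.48), Rbbp4 (-0.0497 to 0.58), Yaf2 (-0.16 to 0.35), Kdm2b (-0.30 to 0.061) and L3mbtl2 (-0.23 to 0.21). For LTR against NSC they did so in Phf1 (-0.01003 to 0.39), Pcgf2 (-0.39 to 0.0119), Pcgf5 (-0.44 to 0.13), Phc2 (-0.0661 to 0.38), Yaf2 (-0.31 to 0.13), Kdm2b (-0.13 to 0.27) and Dnmt3b (-0.0483 to 0.47), and for NF1 against LTR in Ezh1 (-0.45 to 0.14), Rbbp4 (-0.40 to 0.0352), Mtf2 (-0.34 to 0.0224), Rnf2 (-0.17 to 0.0514), Pcgf1 (-0.21 to 0.16), Pcgf2 (-0.19 to 0.00669), Pcgf3 (-0.03997 to 0.13), Pcgf6 (-0.55 to 0.0427), Cbx2 (-0.37 to 0.13), Phc2 (-0.23 to 0.25), Scmh1 (-0.078 to 0.14), Yaf2 (-0.00876 to 0.33), Kdm2b (-0.27 to 0.0515), Tet2 (-0.0308 to 1.49) and Tet3 (-0.061 to 0.28).

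With 3 cultures per group the standard errors of the 39 genes limited which differences passed, and lane and tumour state cannot be told apart. How reads shared with overlapping genes, pseudogenes or paralogues such as Rbbp4 and Rbbp7 were counted is not recorded. Protein levels, H3K27 methylation and DNA methylation were not measured in these libraries.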
